A study of Mus musculus with 10 samples.

Results

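The genes described here are markers of cortical projection neurons, the glutamatergic cells of the cerebral cortex, measured in the nucleus accumbens (NAc) of 2 inbred mouse strains. The list holds 31 names, of which 30 matched a gene among the 29883 in the count table, and 1 was a placeholder that is no gene. The names were chosen by hand, with the levels of cortex markers and the strain differences of these same libraries already known, so the values below are a description of the list and no test was made over it. One member, Fam84b, has the current symbol Lratd2. The NAc was taken from 5 C57BL/6J (B6) and 5 DBA/2J (D2) mice, all male, ethanol-naive and 9 weeks old, and each mouse gave 1 poly-A library. The mice carried no transgene and received no treatment, so the strain was the factor compared.

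Projection neurons of the cortex arise from progenitors of the dorsal forebrain, load glutamate into vesicles with the transporter VGLUT1, and send axons to the striatum and other targets. Their layers are told apart by transcription factors, with CUX proteins and RORB in upper layers and FEZF2, TBR1 and others in deep layers. The NAc is made up mainly of GABAergic spiny projection neurons. It receives cortical glutamatergic input through axons, while the cell bodies that transcribe VGLUT1 lie outside it, and several listed genes are also transcribed by striatal neurons.

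Between 96977262 and 116776714 reads per library were counted on genes. The markers of the labelled tissue were present in every library: the dopamine receptor genes Drd1 and Drd2 had at least 188.9 and 98.8 CPM (counts scaled by library size and TMM factor), and the adenosine receptor gene Adora2a and Ppp1r1b, which encodes DARPP-32, had at least 148.9 and 949 CPM. B6 replicates 3 and 5 stood apart from the other 3 B6 mice, and they were also the most alike of all pairs within a strain. Their mean chi-square per gene was 4.89 over the 15388 genes that averaged 100 counts or more, against 19.1 to 119 for the other B6 pairs and 17.5 to 51.2 for the D2 pairs, where sampling noise gives a value near 1. They therefore differed by more than sampling noise. That value cannot show that they came from separate animals, and they were counted as 2 mice because the labels name 2. The members called in the strain comparison are given with and without them, while the levels and ratios within B6 include them throughout. In bulk tissue, fewer cells of a type and less RNA per cell cannot be told apart.

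Levels of the members ran over a wide range. On the scale of CPM per kilobase of exon (RPKM), where genes can be compared with each other, the mean over the 10 mice was highest for Slc17a7 at 64.4, followed by Nrgn at 42.3 and Crym at 38.9. By the median of the B6 mice the order differed, with Crym at 49.8, Nrgn at 42.7, Lamp5 at 24.1 and Slc17a7 at 23.4 RPKM. The D2 medians were 69.3 for Slc17a7, 36.5 for Nrgn and 29.1 for Crym. Sla, Fezf2 and Neurod1 had the lowest means, at 0.700, 0.643 and 0.509 RPKM. All 30 members had a mean of at least 100 counts. The highest B6 mouse was at least 2 times the lowest for 16 of the 30 members, against 4.18% of all genes with that mean count. In D2 this held for 11 members, against 2.18% of genes. In 20 members both B6 replicates 3 and 5 were above the other 3 B6 mice (25.9% of genes), and in 7 members both were below them (29.6% of genes).

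**Figure D1:**
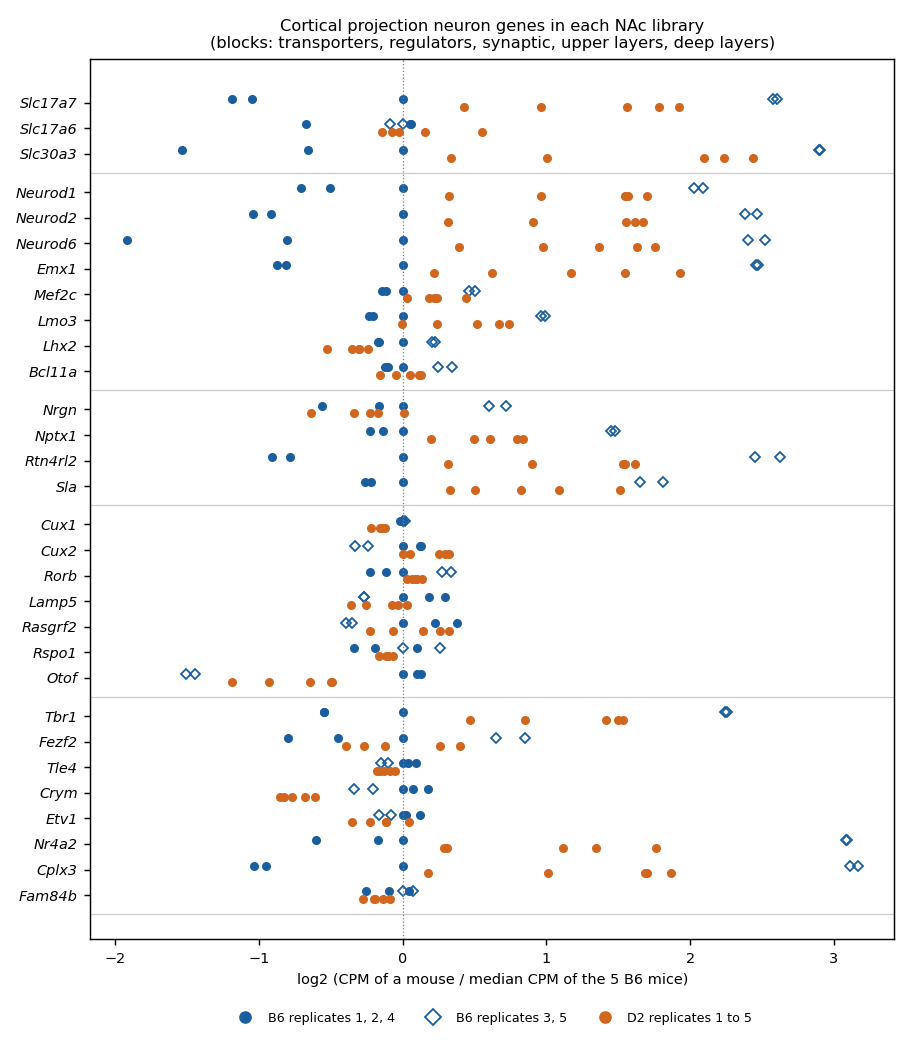
CPM of each of the 30 members in each mouse, as the log2 ratio to the median of the 5 B6 mice, in blocks by role from transporters at the top to deep layers at the bottom. Open diamonds are B6 replicates 3 and 5, filled blue points the other B6 mice and orange points the 5 D2 mice. For 14 members every orange point lies between the filled blue points and the diamonds, with the diamonds on the right, and for Otof the same order runs the other way.

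Slc17a7 (ENSMUSG00000070570, chromosome 7, 44813305 to 44825644 on the forward strand of GRCm39) encodes VGLUT1, which fills synaptic vesicles with glutamate. Its level was 63.0, 57.2, 774, 129.99 and 791 CPM in B6 replicates 1 to 5, and 174, 448, 493, 384 and 254 CPM in D2 replicates 1 to 5. The highest B6 mouse was 13.8 times the lowest, and all D2 mice lay inside the gap between the 3 low and the 2 high B6 mice. D2 differed from B6 by -0.05 on the log2 scale (standard error, SE, 0.68), with a Benjamini-Hochberg (BH) adjusted p = 0.97 over all genes in edgeR's quasi-likelihood test.

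Slc30a3 encodes ZnT3, the transporter that loads zinc into glutamatergic vesicles. It had the largest ratio between mice of all members in both strains, 21.7 in B6 and 4.31 in D2. Its level was 4.12, 2.24, 48.3, 6.49 and 48.5 CPM in B6 replicates 1 to 5, and 8.18, 30.6, 35.2, 27.8 and 13.001 CPM in D2 replicates 1 to 5. As for Slc17a7, B6 replicates 3 and 5 were the 2 highest of the 10 mice and the other B6 mice the 3 lowest.

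Slc17a6 encodes VGLUT2, the vesicular glutamate transporter of thalamic and many other subcortical neurons, and it varied in another way. Its level was 16.9, 16.8, 15.2, 10.2 and 16.2 CPM in B6 and 23.7, 15.4, 18.1, 14.7 and 16.0 CPM in D2. The strains overlapped, B6 replicates 3 and 5 lay among the other B6 mice, and the highest mouse was D2 replicate 1. The log2 fold change was 0.22 (SE 0.15, BH-adjusted p = 0.38 in edgeR).

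The transcriptional regulators that are not tied to 1 layer are Neurod1, Neurod2 and Neurod6, basic helix-loop-helix factors of differentiating and mature glutamatergic neurons, Emx1, a homeobox factor of the dorsal forebrain, and Lhx2, Bcl11a, Mef2c and Lmo3. Both B6 replicates 3 and 5 were above the other 3 B6 mice in all 8 of them. Neurod6 was at 1.45, 0.670, 14.5, 2.53 and 13.4 CPM in B6 replicates 1 to 5, a ratio of 21.6 between the highest and the lowest. In D2 replicates 1 to 5 it was at 3.32, 7.86, 6.52, 8.54 and 4.99 CPM, all above B6 replicate 4 and below B6 replicate 5. Neurod2 and Neurod1, with ratios of 11.4 and 6.96 in B6 and 2.56 and 2.60 in D2, kept the same order of the 3 sets of mice.

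Emx1 is transcribed in cortical progenitors and in the glutamatergic neurons they give rise to. It was at 0.697, 0.728, 7.08, 1.28 and 7.02 CPM in B6 and 1.49, 3.73, 4.86, 2.88 and 1.96 CPM in D2. The D2 ratio of 3.27 was the second largest of the members, and D2 replicate 1 was the lowest D2 mouse, as it was for all 8 regulators and for 18 of the 30 members (23.0% of genes). Mef2c, Lmo3 and Bcl11a, which are also transcribed in striatal or other neurons, varied less, with ratios of 1.57, 2.33 and 1.38 in B6.

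The promoters of the 3 Neurod genes are shown because these paralogues varied together between mice and because NEUROD proteins bind E-boxes. CAGATG, searched on both strands from 250 bases before to 50 bases after the canonical start, was present in 8 of the 30 members (26.7%) and in 14.1% of 17331 protein-coding genes of the table. It was present in Neurod1, Neurod2 and Neurod6 and in the called members Crym and Lhx2, and further in Lamp5, Rorb and Rspo1. The 30 bases around it are printed 5′ to 3′ on the strand of the gene, from the GRCm39 genome and GENCODE annotation, with the motif or its reverse complement CATCTG in capitals.
Neurod1 (chr2:79287312-79287341, reverse strand, motif at 231 bases before the start): tctaactggcgaCAGATGggccactttctt
Neurod2 (chr11:98220572-98220601, reverse strand, 109 bases before the start): agtagagagtgaCAGATGgcggcgggtccc
Neurod6 (chr6:55658483-55658512, reverse strand, 174 bases before the start): ttccctggtaccCAGATGcaccaggaggag
Crym (chr7:119801548-119801577, reverse strand, 51 bases before the start): caagccccttctCATCTGcctttctcacaa
Lhx2 (chr2:38240617-38240646, forward strand, 142 bases before the start): cagaccgaagccCAGATGggcgggaagcag

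Of the 15 members in which B6 replicates 3 and 5 were above the other B6 mice and the B6 ratio was at least 2, these 3 Neurod genes were the ones with CAGATG. That is 20.0% of the 15, near the 14.1% of protein-coding genes. A match of letters is a description and does not show binding. GGTGTGA, the core bound by T-box factors such as TBR1, was found in Bcl11a and Slc30a3 (3.76% of protein-coding genes), and the homeobox core TAATTA in Mef2c and Tbr1 (3.72%).

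**Figure D2:**
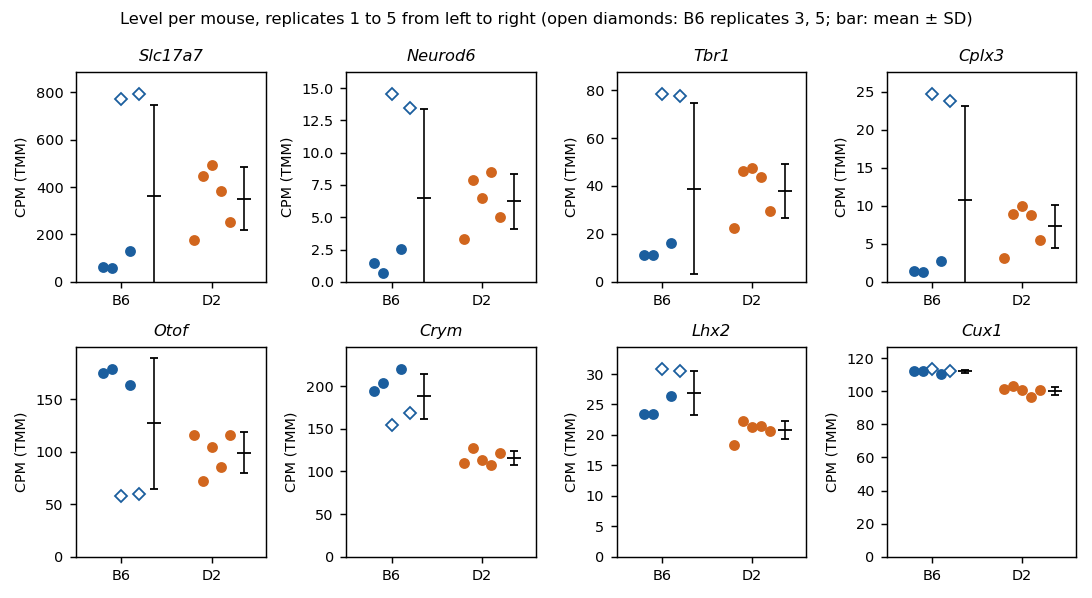
CPM on a linear axis from 0 for 8 members in each mouse, with replicates 1 to 5 from left to right in each strain and the mean ± SD (n = 5) beside them, with bars ending at 0 where the SD exceeds the mean. Slc17a7, Neurod6, Tbr1 and Cplx3 show 3 low and 2 high B6 mice with the D2 mice between them, Otof shows the reverse, and Crym, Lhx2 and Cux1 show strains that do not overlap.

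The 4 members with synaptic or signalling roles are Nrgn (neurogranin, a postsynaptic calmodulin-binding protein), Nptx1 (neuronal pentraxin 1), Rtn4rl2 (a receptor of the Nogo receptor family) and Sla (a Src-like adaptor). All 4 were higher in B6 replicates 3 and 5 than in the other B6 mice, with ratios between the highest and lowest B6 mouse of 2.42, 3.27, 11.6 and 4.20 in that order. Nrgn is abundant in striatal neurons as well as in cortex, and was at 163, 214, 395, 240 and 365 CPM in B6 and 154, 213, 242, 205 and 190.2 CPM in D2. The D2 mice overlapped the 3 lower B6 mice and were all below B6 replicates 3 and 5, with 1 D2 mouse above B6 replicate 4. The log2 fold change was -0.46 (SE 0.21, BH-adjusted p = 0.17 in edgeR), and -0.04 without B6 replicates 3 and 5. In the Nrgn gene 21.7% of exon bases overlap Vsig2 on the other strand, and in Neurod6 28.5% overlap the noncoding Gm3279. Whether strand was used in the counting is not stated in the sources used here.

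The 7 upper-layer markers did not move together between the B6 mice. Rorb and Cux1 were higher in both B6 replicates 3 and 5, for Cux1 by 1.01 and 1.00 times the B6 median. Cux2, Lamp5, Rasgrf2 and Otof were lower in both, and Rspo1 was neither. Of 12 striatal projection neuron genes, 8 were also lower in both. These members mark layers within the cortex, and which cells of the dissected tissue gave their reads was not tested. Otof encodes otoferlin, a calcium sensor of vesicle release in the inner ear that is also used as a marker of some upper-layer neurons. It was at 175, 178, 57.7, 164 and 60.1 CPM in B6 and 116, 72.0, 105, 85.8 and 116 CPM in D2. Its order was the reverse of that of Slc17a7: B6 replicates 3 and 5 were the 2 lowest of the 10 mice, the other B6 mice the 3 highest and the D2 mice between them. The log2 fold change was -0.36 (SE 0.31, BH-adjusted p = 0.50 in edgeR). Cux2, a homeobox factor of upper layers, was at 68.4, 67.9, 49.6, 62.5 and 53.0 CPM in B6 and 78.1, 62.7, 76.5, 64.7 and 74.4 CPM in D2, with strains that overlapped and a log2 fold change of 0.24 (SE 0.095, BH-adjusted p = 0.10 in edgeR).

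The 8 deep-layer markers also split. Tbr1, Nr4a2, Cplx3 and Fezf2 were higher in both B6 replicates 3 and 5 than in the other B6 mice. Tle4, Crym and Etv1 were lower in both, and Fam84b was neither. Which cells gave the reads of these markers was not tested either. Tbr1, a T-box factor of layer 6 neurons, was at 11.2, 11.2, 78.2, 16.4 and 77.5 CPM in B6 and 22.7, 46.2, 47.4, 43.7 and 29.5 CPM in D2. It kept the order of Slc17a7, with all D2 mice between the 3 lower and the 2 higher B6 mice. Its log2 fold change was -0.04 (SE 0.54, BH-adjusted p = 0.97 in edgeR).

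Cplx3 and Nr4a2 are transcribed in layer 6b, the remnant of the subplate, and Nr4a2 also in the claustrum and in dopamine neurons. Cplx3, a complexin, was at 1.42, 1.34, 24.6, 2.74 and 23.8 CPM in B6 and 3.09, 8.90, 10.02, 8.81 and 5.53 CPM in D2, with ratios of 18.4 and 3.24 within the strains. Nr4a2 was at 3.39, 2.52, 32.5, 3.83 and 32.7 CPM in B6 and 4.67, 12.98, 9.71, 8.29 and 4.75 CPM in D2. Both kept the same order as Tbr1. Their log2 fold changes were -0.57 (SE 0.75, BH-adjusted p = 0.69 in edgeR) and -0.89 (SE 0.69, BH-adjusted p = 0.45 in edgeR). In Fam84b, whose B6 ratio was 1.26, 45.3% of exon bases overlap the noncoding 9930014A18Rik on the other strand.

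Between the strains, 3 of the 30 members passed an adjusted p of 0.05 and were lower in D2, where 9.83% of all genes were called lower. None of the members was called higher, where 8.5% of all genes were. DESeq2 also called these 3 and none higher. They were also the members whose strains did not overlap in CPM, which held for 16.0% of all genes. For lower calls, 3 in 30 was near the share of the whole table, and for strains that did not overlap it was below it. The whole table also holds genes with fewer counts than any member. Of the 15388 genes that averaged 100 counts or more, as all members did, 2034 were called lower and 1623 higher. In 3178 of them the strains did not overlap. These shares are larger than those of the whole table, and 3 in 30 was below those for lower calls and for no overlap. No test was made of this.

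Crym (ENSMUSG00000030905, chromosome 7, 119785530 to 119801514, reverse strand) encodes mu-crystallin, a thyroid hormone-binding protein that marks deep-layer neurons and is also made in the striatum. It had the largest change of the 3. It was at 194, 204, 154, 220 and 168 CPM in B6 and 109, 128, 114, 107.6 and 121 CPM in D2, so that the lowest B6 mouse was above the highest D2 mouse. The mean was 188 ± 26.7 CPM (SD, n = 5) in B6 and 116 ± 8.31 CPM (SD, n = 5) in D2, and the log2 fold change was -0.70 (SE 0.088, BH-adjusted p = 8.7e-05 in edgeR). The 10 fits that each lacked 1 mouse gave values from -0.77 to -0.64. With striatal genes as a covariate it was -0.40, still called. Of those 12 striatal genes, 8 were themselves called lower in D2, so that fit cannot fully tell the covariate from the strain.

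Lhx2 (ENSMUSG00000000247, chromosome 2, 38229293 to 38259759, forward strand) is a LIM homeobox factor of cortical progenitors and of some mature forebrain neurons. Its level was 23.5, 23.4, 30.8, 26.4 and 30.4 CPM in B6 and 18.3, 22.2, 21.4, 21.4 and 20.7 CPM in D2. All B6 mice were above all D2 mice, with B6 replicates 3 and 5 the highest. The log2 fold change was -0.37 (SE 0.085, BH-adjusted p = 0.0084 in edgeR), and -0.23 without B6 replicates 3 and 5.

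Cux1 (ENSMUSG00000029705, chromosome 5, 136276755 to 136596408, reverse strand) is a homeobox factor that marks upper layers and is transcribed in many other cells. It was the steadiest member within B6, at 112, 112, 113, 111 and 112 CPM, and was at 101, 103, 101, 96.4 and 101 CPM in D2. The strains did not overlap. The log2 fold change was -0.16 (SE 0.028, BH-adjusted p = 0.0012 in edgeR). The files were made by alignment to the B6 genome, so reads with D2 alleles could be lost from D2 libraries, and the part of this in the 3 lower values was not tested.

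The other 27 members had log2 fold changes from -0.89 to 0.24, with standard errors from 0.048 to 0.75 and a median of 0.285. Over the genes that averaged 100 counts or more the median standard error was 0.059. Cplx3, Slc30a3, Nr4a2, Slc17a7 and Neurod6 had the 5 widest errors, and a strain difference of the size seen in Lhx2 is smaller than 1 standard error for each of them, so it was not detectable with these mice.

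Leaving out B6 replicates 3 and 5, a choice made after their member levels were seen, changed the counts. In the remaining 3 B6 and 5 D2 mice, 15 of the 30 members were called higher in D2 (9.68% of all genes) and 6 lower (9.54% of all genes). The mice were left out for their levels of these genes, so the counts are a description and not a test of the strains. The 15 were Slc17a7, Slc30a3, Neurod1, Neurod2, Neurod6, Emx1, Mef2c, Lmo3, Nptx1, Rtn4rl2, Sla, Rorb, Tbr1, Nr4a2 and Cplx3, and the log2 fold change of Slc17a7 became 2.07, that of Tbr1 1.55, that of Cplx3 1.99 and that of Nr4a2 1.31. The 6 were Crym, Lhx2, Cux1, Lamp5, Tle4 and Otof, with -0.83 for Crym, -0.15 for Cux1 and -0.80 for Otof. Crym, Lhx2 and Cux1 were thus called lower with and without these mice, while the 15 had no call with all mice.

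**Figure D3:**
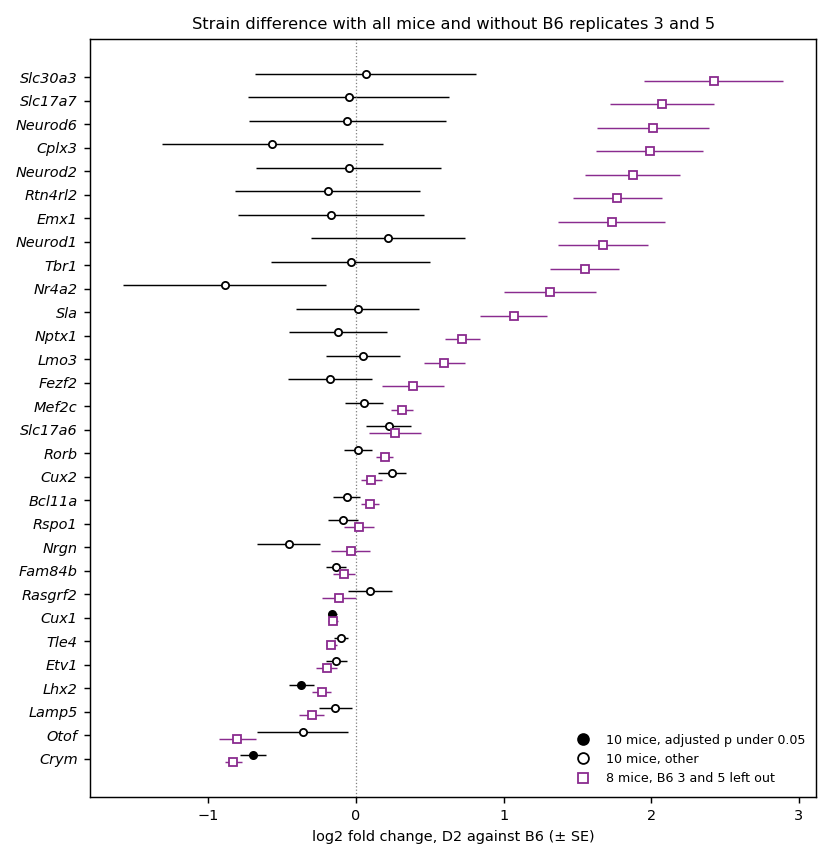
Log2 fold change of D2 against B6 ± standard error for the 30 members, with all 10 mice (circles, filled where the adjusted p was under 0.05) and without B6 replicates 3 and 5 (squares). The circles of Slc17a7, Slc30a3, Neurod2 and Neurod6 lie near 0 with wide errors and their squares lie to the right, while the 2 values of Slc17a6 (0.22 and 0.26) lie close together, and the 2 values of Crym, Lhx2 and Cux1 all lie to the left of 0.

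With the level of 17 other cortical genes as a covariate, 8 of the 30 members were called (26.3% of all genes). Cux2 and Slc17a7 were higher in D2, and Bcl11a, Crym, Cux1, Lhx2, Nr4a2 and Nrgn were lower. In this fit the log2 fold change of Slc17a7 was 0.28 and that of Nr4a2 was -0.55. With striatal genes as the covariate 6 members were called (13.8% of all genes), namely Cux2 higher and Crym, Cux1, Lhx2, Nr4a2 and Nrgn lower. Here the log2 fold change was -2.71 for Nr4a2, -0.90 for Nrgn, -0.55 for Lhx2 and 0.54 for Cux2. It was -1.46 for Slc17a7, -1.33 for Tbr1 and -2.15 for Cplx3, which were not called, so that Slc17a7 and Tbr1 had opposite signs with the 2 covariates. Such a covariate is itself measured in the same libraries. Of the 12 striatal genes, 8 were themselves called lower in D2, so covariate and strain cannot be fully told apart in that fit.

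The list of other cortical excitatory neuron genes, which held 17 genes, showed a like spread between the B6 mice. In 15 of the 17 both B6 replicates 3 and 5 were above the other B6 mice, and in 2 both were below. The summed level was 581 to 1123 CPM in B6 and 588 to 796 CPM in D2, and the summed level of the members was 1733 to 3138 and 1769 to 2488 CPM. Of the 17, 2 were called lower in D2, Syt6 with a log2 fold change of -0.40 and Ephb6 with -0.29, and none higher. The median log2 fold change was -0.07 for these genes, -0.09 for the members and 0.0036 for all genes.

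Of 12 striatal projection neuron genes, 8 were lower in both B6 replicates 3 and 5 and none higher, and their summed level was 5224 to 6630 CPM in B6 and 4386 to 5276 CPM in D2. In the strain comparison 8 of the 12 were called lower in D2, among them Penk at -0.52, Drd2 at -0.46, Gpr6 at -0.42 and Adora2a at -0.39 on the log2 scale, while Drd1 at -0.06 and Ppp1r1b at -0.23 did not pass (BH-adjusted p = 0.67 and 0.071 in edgeR). Oligodendrocyte genes were higher in both B6 replicates 3 and 5 for 5 of 5, with summed levels of 3981 to 5822 CPM in B6 and 3010 to 4400 CPM in D2. Endothelial genes were higher there for 3 of 3 (99.9 to 129 CPM in B6, 85.8 to 120 in D2). The part of these lists in the members' values was not tested.

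Among the lists of neighbouring regions and other cells, claustrum genes were higher in both B6 replicates 3 and 5 for 1 of 4 (Ntng2) and lower for none, with summed levels of 310 to 335 CPM in B6 and 306 to 356 in D2. Septal genes were lower there for 2 of 4 and thalamic genes lower for 2 and higher for 1 of 4. Genes of the interneuron list were higher for 4 of 8 (Sst, Vip, Npy and Cck) and lower for 3 (Gad1, Gad2 and Lhx6). Spiny projection neurons of the NAc are GABAergic too, so Gad1 and Gad2 are not particular to interneurons. For astrocytes 1 of 5 was lower and none higher, for microglia 1 of 4 was higher, for ependyma none of 3 was either, and for choroid plexus 1 of 3 was higher and 2 lower. Of the 3 choroid plexus genes, Folr1 was at 0 to 0.0952 CPM over the 10 libraries, Ttr at 0.0378 to 0.499 and Kl at 4.91 to 9.70 CPM. Between the strains, septum, microglia and the interneuron list (Gad1) each had 1 gene called higher in D2. Astrocytes had 1 called higher and 2 lower, oligodendrocytes 3 lower and choroid plexus 1 lower, while claustrum, thalamus, endothelium and ependyma had no call.

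**Figure D4:**
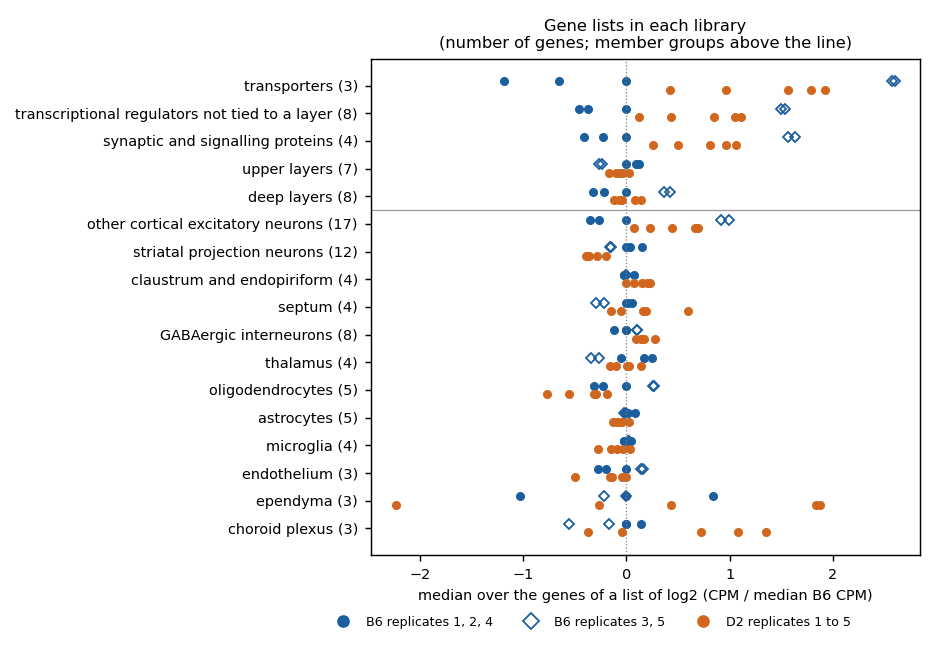
Median over the genes of each list of the log2 ratio of CPM to the B6 median, per mouse, with the number of genes in brackets and the 5 groups of members above the line. The 2 open diamonds (B6 replicates 3 and 5) lie farthest right of all mice in the transporters, regulators, synaptic genes, deep-layer markers, other cortical genes, oligodendrocytes and endothelium, and on the left of the other B6 mice in the upper-layer markers, striatal genes, septum, thalamus and choroid plexus.

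In 14 of the 30 members every D2 mouse lay between the 3 lower and the 2 higher B6 mice, against 2.74% of genes with that mean count. These were Slc17a7, Slc30a3, Neurod1, Neurod2, Neurod6, Emx1, Mef2c, Nptx1, Rtn4rl2, Sla, Rorb, Tbr1, Nr4a2 and Cplx3. The B6 mice were split in this way after the member levels were seen, so the count is a description and not a test. Without B6 replicate 1, 5 members were called lower in D2 (9.95% of all genes), namely Crym, Cux1, Lhx2, Nrgn and Fam84b, while leaving out any other single mouse kept the same 3 calls.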

How the data were processed

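The authors trimmed reads with fastp 0.22.0, aligned both strains with STAR 2.7.10b to Ensembl release 108 of the B6 genome (GRCm39), sorted with SAMtools 1.6 and assigned reads to genes with featureCounts. The deposited table holds raw counts, and genes whose median was 0 had been left out of it by the authors. The methods name the VCU Genomics Core for library preparation and sequencing, with an Illumina stranded kit, and the labels name another provider.

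Counts of 29883 genes were fitted with edgeR 4.0.16 (R 4.3.3; TMM; two-sided quasi-likelihood F test) on strain, with p-values adjusted over all genes by Benjamini-Hochberg and a threshold of 0.05. Standard errors were |log2 fold change| / sqrt(F). CPM and RPKM used TMM-scaled library sizes and merged exon lengths of GENCODE vM39. The fit was tested on simulated data. DESeq2 1.42.0 was an alternative, and the others are named in the closing section.

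The members and all lists were chosen with earlier results of these data known. Values per mouse were given by rule for called members and for the 3 with the largest ratio of highest to lowest mouse in each strain. Slc17a7, Slc17a6, Tbr1, Nr4a2, Nrgn, Cux2 and Otof were added after their values were seen. The correlations of deviations from the strain means between mice with the same replicate number ran from -0.407 to 0.368, so numbers were not treated as pairs. Figures used matplotlib 3.10.9.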

Additional observations from a re-analysis of the deposited data

Results flagged for a closer look

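In 60 groups of 5 mice (30 members in each strain), 1 value lay far from the others by Dixon's criterion, where chance gives about 1 in 20. Slc17a6, which encodes VGLUT2, was at 10.2 CPM in B6 replicate 4, while the nearest B6 mouse was at 15.2 and the highest at 16.9 CPM. The gap was 0.753 of the range of the 5 mice, above the critical value of 0.71. B6 replicate 4 was not among the mice with high Slc17a7.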

How the results depend on the processing

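DESeq2, scaling by DESeq2 size factors, by total counts or by the upper quartile, filterByExpr, a minimum of 10 counts in every sample and an adjusted p of 0.01 (3415 genes called in place of 5478) each called Crym, Cux1 and Lhx2 and no other member. Under these 7 alternatives the 11 single-gene log2 fold changes kept their sign and side of the threshold, except that under total counts Slc17a7 became 0.0015 and Tbr1 0.012, neither called. The same 3 members were called with the replicate number as a block, in which Slc17a7 was at 0.77, Tbr1 at 0.47 and Cplx3 at 0.37, none called, and 4731 genes were called; the numbers did not pair the mice. With each mouse left out, 3 to 5 members were called, 0 higher and 3 to 5 lower, and 4636 to 5676 genes in all; 5 came without B6 replicate 1, which added Nrgn and Fam84b. In these fits Slc17a7 ran from -0.33 to 0.44 and Tbr1 from -0.27 to 0.38, with values above 0 without B6 replicates 3 or 5 or D2 replicates 1 or 5. With other cortical genes as a covariate 8 members were called (2 higher, 6 lower), and Slc17a7 was at 0.28, Tbr1 at 0.12 and Otof at 0.0046. With striatal genes 6 were called (1 higher, 5 lower), with Otof at 0.94, Slc17a6 at -0.0012, Slc17a7 at -1.46, Tbr1 at -1.33, Cplx3 at -2.15, Nr4a2 at -2.71, Nrgn at -0.90 and Crym at -0.40. Without B6 replicates 3 and 5, chosen after seeing the data, 21 were called (15 higher, 6 lower), with Slc17a7 at 2.07, Tbr1 at 1.55, Nr4a2 at 1.31 and Cplx3 at 1.99; the 2 mice set these values. Most of the striatal genes were themselves lower in D2, and for the covariates the cause was not tested. The lowest member averaged 165.7 counts, and counting error was not separated from the spread between mice. With 5 mice per strain, the p-values set each strain difference against the variation between mice, and they do not measure that variation.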
